A study of Mus musculus with 6 samples.

Results

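The complement genes described here are C3, C2, C4b, Cfb, Cfd, Cfi, C1ra, C1s1 and C1qa, a set fixed by name. All 9 were present among the 24077 genes of the single-cell table and among the 30828 genes of each of the 4 section tables. Female CD-1 mice received corn oil (CO) or diethylstilbestrol (DES, a synthetic estrogen, 1 mg/kg/day by subcutaneous injection) on days 1 to 5 after birth, and their uteri were studied at 12 months of age. Dissociated cells were pooled from 2 CO mice and from 4 DES mice into 1 library each. Spatial RNA was measured on Visium slides in 2 CO sections (CO A and CO B) and 2 DES sections (DES A and DES B), each from 1 mouse and all on a single slide. The CO mice were in estrus, a state in which DES mice remain. A pathologist examined tissue of both groups for luminal and glandular epithelium, and the DES tissue also for adenocarcinoma. The selected blocks of both groups were cored to areas of interest, so the sections stand for chosen areas rather than for whole uteri. The study notes a tissue fold in CO B and a limited identification of the clusters in DES B.

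Complement is a cascade of plasma and tissue proteins that marks cells and debris for removal. In the classical pathway, C1q binds a surface and the proteases C1r and C1s cut C4 and C2, whose fragments form the enzyme that cleaves C3, the protein on which all routes converge. The alternative pathway uses factor B, cut by factor D, to build a second enzyme of the same kind, and factor I shuts both down by degrading the active fragments of C3 and C4. In the rodent uterus, C3 is a well-known estrogen-responsive product of the epithelium.

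C1qa lies on chromosome 4 (136895917-136898803, minus strand), and C1ra (124512405-124523443, plus strand) and C1s1 (124530345-124542359, minus strand) lie on chromosome 6, where their 3′ ends face each other across 6901 bases. C4b (34728380-34743882), Cfb (34856374-34862518) and C2 (34862604-34898265) lie on the minus strand of chromosome 17, with C2 and Cfb only 85 bases apart, and C3 (57203970-57228136, minus strand) is elsewhere on that chromosome. Cfd is on chromosome 10 (79890853-79892655, plus strand) and Cfi on chromosome 3 (129835884-129875332, plus strand). These positions are whole genes in GENCODE M21 on GRCm38, the assembly also named mm10. C4b, C1ra and C1s1 have near-identical copies (C4a, C1rb and C1s2), so the reads of these 3 members may have been split or discarded in counting.

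The 250 bases before the start of transcription are shown for C3, which had the larger difference of the 2 members called between the whole sections, and for the neighbours C1ra and C1s1. They come from RefSeq on GRCm38.p6, in whose list of promoters 4 of the 9 members were matched, and they read 5′ to 3′ on the strand of the gene, with capitals at the motifs found. The C3 window is chr17:57228137-57228386 on the minus strand, the C1ra window chr6:124512371-124512620 on the plus strand, which ends 216 bases inside the GENCODE gene, and the C1s1 window chr6:124542360-124542609 on the minus strand. RefSeq has a second C1s1 start 38 bases downstream, whose window is not printed.
C3: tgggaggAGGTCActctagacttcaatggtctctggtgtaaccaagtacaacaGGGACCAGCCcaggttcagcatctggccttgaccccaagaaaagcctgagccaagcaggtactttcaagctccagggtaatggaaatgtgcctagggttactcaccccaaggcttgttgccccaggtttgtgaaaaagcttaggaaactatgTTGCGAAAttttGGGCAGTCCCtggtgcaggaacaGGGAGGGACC
C1ra: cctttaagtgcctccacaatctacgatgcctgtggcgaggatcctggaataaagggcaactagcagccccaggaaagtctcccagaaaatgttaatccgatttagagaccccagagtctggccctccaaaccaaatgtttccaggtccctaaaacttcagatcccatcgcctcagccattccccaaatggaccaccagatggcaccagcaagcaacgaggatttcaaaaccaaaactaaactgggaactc
C1s1: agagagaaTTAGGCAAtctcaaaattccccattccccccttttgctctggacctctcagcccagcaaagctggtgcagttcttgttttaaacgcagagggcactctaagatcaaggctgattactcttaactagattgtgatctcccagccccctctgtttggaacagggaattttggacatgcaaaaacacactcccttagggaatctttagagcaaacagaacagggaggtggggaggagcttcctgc
Each window was searched on both strands for a TATA box (TATAAA, present in 12.4% of 32817 promoter windows of the same length), a C/EBP-type motif (TTGCNNAA, 9.57%), a nuclear receptor core motif (AGGTCA, 14% of windows), a consensus estrogen response element (GGTCA and TGACC with 3 bases between, 0.064%), an NF-kB-type motif (GGGA and CC with 4 bases between, 17.6%), a STAT-type motif (TTCNNNGAA, 7.01%) and an IRF-type motif (GAAA and GAAA with 2 bases between, 2.97%). In C3 the nuclear receptor motif lay 243 to 238 bases before the start, and the C/EBP-type motif lay 45 to 38 bases before it. The NF-kB-type letters occurred in C3 at 197 to 188 and at 10 to 1 bases before the start, and on the opposite strand at 33 to 24. C1s1 held the C/EBP-type letters on the opposite strand at 242 to 235 bases, which lie outside the window of its second start, where the NF-kB-type letters occurred on the opposite strand at 35 to 26 bases. None of the 7 motifs matched in C1ra. No 2 of these matches overlapped, and a match is only a run of letters in this window.

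Unique molecular identifiers (UMIs, which count captured RNA molecules) had a median of 6779 per cell over the 32387 CO cells and 10153.5 over the 16312 DES cells. A cell type was given by the authors to 12253 CO and 9701 DES cells. The sections held 1357 to 1834 spots and 9117099 to 12506177 UMIs. Levels are given as CPM, the UMIs of a gene per 1000000 UMIs of the same group of cells or spots, with exact Poisson 95% intervals where they are printed. In all, 180 barcodes occurred in both libraries, 32 of them with a cell type in each, and every direction and 2-fold call of a member was the same without them. Cells annotated as mesothelial also carried stromal markers at a summed 21126 CPM in CO and 21755 CPM in DES, above the 12687 CPM of the cells annotated as stromal, beside mesothelial markers at 2667 and 2727 CPM. They are called annotated mesothelial cells below. Cells annotated as lymphocytes also carried myeloid markers, at 3511 CPM in CO and 9023 CPM in DES. Their lymphocyte markers were at 1619 and 1419 CPM, their epithelial markers at 1017 and 439 CPM and their stromal markers at 969 and 732 CPM. Lymphocytes serve below as a comparison type and are not free of other cell types. The DES library held 1 annotated stromal cell and 5 endothelial cells and the CO library 22 Stmn1-hi cells, too few to describe, so that orders of cell types below are among types with at least 50 cells.

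C1qa, which encodes a chain of the recognition molecule C1q, was a myeloid transcript. It stood at 4317 CPM (4154 to 4484) in the 67 CO myeloid cells and at 8780.5 CPM (8652 to 8910.05) in the 228 DES myeloid cells. These cells were 0.547% and 2.35% of the annotated cells but held 88.0% and 95.1% of the annotated C1qa UMIs. Lymphocytes came next with 103 CPM in CO and 72.5 CPM in DES, but only 2.6% and 3.77% of them had a C1qa UMI, so that a few cells carried the level. The DES myeloid cells with high Lyz2 had 63.7 CPM (53.7 to 75.1), an interval that overlaps that of the DES lymphocytes (59.5 to 87.5), and a UMI in 6.62% of cells. Every other type with at least 50 cells was at or under 3.93 CPM.

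After each cell was thinned to 3000 UMIs, so that shares could be compared at 1 depth, 100% of CO and 99.1% of DES myeloid cells had a C1qa UMI (100% and 99.6% without thinning). The share in epithelial cells, which should lack the gene, was 0.117% in CO and 0.788% in DES (1.7% and 5.82% without thinning). Median depth before thinning was 7161 and 8647.5 UMIs in the myeloid and 23458 and 21900 UMIs in the epithelial cells.

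C1ra and C1s1, the serine proteases that C1q activates, had their highest levels in annotated mesothelial cells, pericytes and stromal cells. The annotated mesothelial cells held 85.7% of the annotated C1s1 UMIs in CO and 97.2% in DES. For C1ra they held 87.5% and 95.6%. These cells were 56.0% and 39.6% of the annotated cells. C1s1 had 148 CPM (146 to 151) in CO and 231 CPM (227 to 235) in DES annotated mesothelial cells, 167 CPM (127 to 216) in CO pericytes and 116 CPM (109.5 to 121.9) in CO stromal cells. The pericyte interval overlaps that of the CO annotated mesothelial cells, whereas the stromal interval does not. In CO and DES epithelial cells C1s1 was at 3.88 and 2.14 CPM.

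C1ra had a like distribution, with 52.9 CPM in CO and 61.1 CPM in DES annotated mesothelial cells, 45.4 CPM (25.9 to 73.7) in pericytes and 34.1 CPM (30.8 to 37.6) in stromal cells of the CO library. Epithelial cells had 1.29 CPM in CO and 0.903 CPM in DES. A C1s1 UMI was seen after thinning in 36.5% of CO and 49.8% of DES annotated mesothelial cells and in 29.5% of CO stromal cells. Lymphocytes, the comparison type, had 4.84% and 2.35%. The unthinned shares in the same order were 74.6%, 89.5%, 61.3%, 5.2% and 5.86%.

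C2 and C4b, the substrates of C1s, were concentrated in the annotated mesothelial cells. C2 had 344 CPM (339.7 to 347.7) in CO and 432 CPM (427 to 437) in DES annotated mesothelial cells, which held 94.3% and 95.1% of the annotated C2 UMIs. These cells were 56.0% of the annotated CO cells and 39.6% of the annotated DES cells. No other type with at least 50 cells exceeded 77.9 CPM, the level in CO myeloid cells, and CO pericytes and stromal cells were at 59.6 and 35.2 CPM. The CO myeloid cells also carried summed mesothelial markers of 587 CPM and stromal markers of 4949.6 CPM. The share of cells with a C2 UMI after thinning was 62.9% in CO and 69.9% in DES annotated mesothelial cells, and 4.19% and 3.76% in lymphocytes (unthinned 91.1%, 94.8%, 7.33% and 6.69%).

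C4b had 273 CPM (269.7 to 276.8) in CO and 251 CPM (247 to 255) in DES annotated mesothelial cells, or 91.1% and 96.1% of its annotated UMIs. Among types with at least 50 cells, CO myeloid cells followed with 172 CPM (141 to 208), and CO pericytes and stromal cells had 62.4 and 48.5 CPM. Epithelial cells were low, at 15.4 CPM in CO and 2.95 CPM in DES, below the 48.05 and 36.3 CPM of lymphocytes. After thinning, 4.37% of CO and 1.33% of DES epithelial cells had a C4b UMI (31.3% and 8.96% without thinning). The lymphocyte shares were 6.13% and 3.29% (10.4% and 5.86%). Without thinning the epithelial shares were thus the higher ones, but the epithelial cells were also deeper. Lymphocytes are not free of other cell types either. The comparison therefore cannot tell the epithelial level apart from background, and it does not show that this level is background.

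C3 was found in every annotated type with at least 50 cells, in 2 tiers. The upper tier comprised the annotated mesothelial cells, with 2166 CPM (2156 to 2176) in CO and 2941 CPM (2927 to 2954) in DES, and the epithelial cells, with 1730.2 CPM (1721 to 1739) and 884 CPM (879.7 to 888.5). Annotated mesothelial and epithelial cells held 55.5% and 42.1% of the annotated C3 UMIs in CO and 54.7% and 44.9% in DES. They were 56.0% and 21.1% of the annotated cells in CO and 39.6% and 54.2% in DES, so the UMI shares also follow the cells captured. In CO the lower tier ran from 727 CPM in myeloid cells through pericytes (678 CPM), myocytes (631 CPM) and lymphocytes (494 CPM) to the Ctla2a cells (326 CPM), endothelial cells (285 CPM) and stromal cells (265 CPM). The intervals of myeloid cells, pericytes and myocytes overlap, as do those of the endothelial and stromal cells.

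Shares of cells separate the tiers less sharply. After thinning, 94.6% of CO epithelial and 98.2% of CO annotated mesothelial cells had a C3 UMI. So did 74.5% (69.3 to 79.3) of CO lymphocytes, the comparison type, which also carried markers of other cells. The share of CO stromal cells, 50.5% (47.7 to 53.2), was below that of the lymphocytes and cannot be told apart from background. The shares of endothelial (59.3%), Ctla2a (60.4%) and myeloid cells (64.2%) were no higher than the lymphocyte share either. In DES the shares were 75.9% of epithelial cells, 97.7% of annotated mesothelial cells and 48.4% of lymphocytes. Without thinning, the epithelial, annotated mesothelial, lymphocyte and stromal shares were 99.6%, 99.9%, 87.7% and 86.3% in CO and the first 3 were 96.4%, 99.8% and 66.9% in DES, and the lymphocytes had median depths of 4033 UMIs in CO and 5599 in DES.

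Cfb and Cfi were epithelial transcripts in both libraries. Factor B, the enzyme component of the alternative pathway, had 45.9 CPM (44.4 to 47.4) in CO and 33.2 CPM (32.4 to 34.1) in DES epithelial cells, which held 76.7% and 82.7% of its annotated UMIs. Cfi, encoding the inhibitory protease factor I, had 76.3 CPM (74.4 to 78.2) and 72.4 CPM (71.2 to 73.7), with 90.8% and 98.4% of its annotated UMIs. Epithelial cells were 21.1% of the annotated CO and 54.2% of the annotated DES cells, so these UMI shares also follow the cells captured. For Cfb the next types were CO myeloid cells at 17.9 CPM (8.91 to 31.9) and DES annotated mesothelial cells at 18.5 CPM (17.5 to 19.6), while for Cfi no other type with at least 50 cells exceeded 17.0 CPM, the level of the CO pericytes.

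A Cfi UMI was seen after thinning in 18.4% of CO and 15.7% of DES epithelial cells and in 3.87% and 1.41% of lymphocytes. For Cfb the epithelial shares were 11.4% and 8.56%, and the lymphocyte shares 3.87% and 1.88%. Unthinned epithelial shares were 67.5% and 55.1% for Cfi and 61.3% and 44.5% for Cfb, against lymphocyte shares of 5.91% and 4.6% and of 4.73% and 3.35%.

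Cfd, which encodes factor D (adipsin), an adipocyte product, was almost absent from the single-cell data. A single UMI was counted over all cells, in a CO cell without a cell type. The adipocyte gene Adipoq had 5 UMIs over all cells. With 0 UMIs of 78801159 in CO epithelial cells, a level of up to 0.0381 CPM is allowed (3 counts), and the same limit was 0.0361 CPM in CO and 0.0464 CPM in DES annotated mesothelial cells. The reference annotation behind the cell counts could not be examined for this gene, so these limits hold only for RNA that it would have counted as Cfd.

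**Figure D1:**
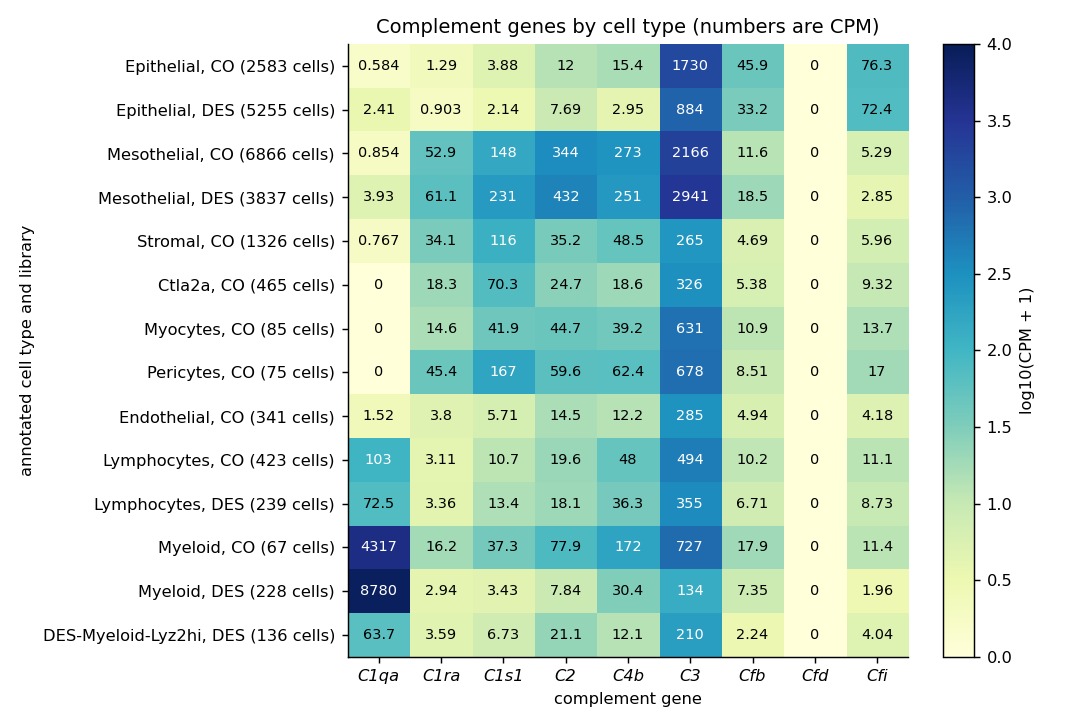
Levels of the 9 complement genes (columns) in each annotated cell type of the CO and DES libraries with at least 50 cells (rows), coloured by log10(CPM + 1) and printed as CPM. C1qa stands out in the myeloid rows (4317 and 8780.5 CPM), C2 and C4b in the mesothelial rows, Cfb and Cfi in the epithelial rows, and Cfd is 0 throughout.

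In the map of levels by cell type, the classical genes and the alternative pathway genes occupy different rows. The mesothelial rows are dark for C1ra, C1s1, C2 and C4b, the pericyte row is close to them for the proteases, and only C3 is dark in both the mesothelial and the epithelial rows.

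Between the libraries, the levels of the members in 1 type of cell were compared as the ratio of DES to CO, with an exact binomial interval for counting error. With 1 library per group there is no replicate check, so that no test was made and a ratio was called only when it was at least 2-fold and the gene reached 10 CPM in either library. In epithelial cells, C4b was the only member past this limit, at 15.4 CPM in CO and 2.95 CPM in DES. Its ratio of 0.191 (0.172 to 0.212) is between levels that could not be told apart from background. By the same rule 7.21% of the 8445 epithelial genes were lower in DES and 14.3% were called in either direction, and 1 of the 5 members that reached the minimum is read against that background. C3 stood at a ratio of 0.511 (0.507 to 0.515), just inside the 2-fold limit, Cfb at 0.724 (0.695 to 0.755) and Cfi at 0.949 (0.921 to 0.979). C2, at 0.640 (0.588 to 0.696), had a UMI after thinning in 3.55% of CO and 2.35% of DES epithelial cells, no more than in lymphocytes.

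The annotated mesothelial cells gave no call among 6 members, where 4.22% of all genes were called. Their ratios for C3 (1.36), C2 (1.26), Cfb (1.59), C1ra (1.15) and C1s1 (1.56) were above 1 and that for C4b was 0.918 (0.900 to 0.937). Lymphocytes also gave none of 7 (11.8% of all genes were called), with C3 at 0.719 (0.647 to 0.798). C3 was thus lower in DES epithelial cells and higher in DES annotated mesothelial cells, a contrast between single libraries that was not tested.

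All 8 measurable members were called in myeloid cells. C1qa was higher in DES at a ratio of 2.03 (1.95 to 2.12). The other 7 were lower, from 0.0920 (0.0333 to 0.221) for C1s1 to 0.412 (0.177 to 0.992) for Cfb, with C3 at 0.184. C2, Cfb, Cfi, C1ra and C1s1 reached the minimum of 10 CPM in CO only, the group where they were higher. Counts were small, with 7 UMIs in CO and 4 in DES for Cfi, 10 and 6 for C1ra and 11 and 15 for Cfb. The background was itself large, with 27.6% of all genes called, 22.8% lower and 4.89% higher. Between the 67 CO and 228 DES cells the summed level of 5 mesothelial markers was 587 against 48.5 CPM, that of 6 stromal markers 4949.6 against 259.9 CPM, and that of 8 myeloid markers 4844 against 13079.5 CPM. All 5 mesothelial and all 8 myeloid markers were detected in both groups, as were 5 of the 6 stromal ones, and the part of these marker differences in the ratios was not tested.

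Within the epithelium the authors clustered CO and DES cells separately, and 14 CO and 16 DES clusters held at least 50 cells. Because these clusterings used the counts described here, cluster levels are a description. C3 ranged in CO from 485 CPM in cluster 13, assigned to mature glands by the study, to 3150.4 CPM in cluster 11, with a median of 1712 CPM. In DES it ranged from 252 CPM in cluster 8 to 2048 CPM in cluster 1, with a median of 863 CPM, and 4 DES clusters were below the lowest CO cluster. The C3 ranges of the libraries thus overlapped over most clusters.

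C4b, whose epithelial level was no higher than its level in lymphocytes, did not overlap. It lay between 7.41 CPM (cluster 8) and 35.1 CPM (cluster 11) in CO and between 2.14 CPM (cluster 5) and 4.20 CPM (cluster 13) in DES, so that all 16 DES clusters were below every CO cluster. Clusters of a group share a library and are not replicates, so this count restates the difference between the libraries. The share of all genes whose clusters separate in this way was not counted.

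Cfb and Cfi varied widely among clusters of the same library. Cfb was at 71.9 CPM in CO cluster 7 and at 6.74 CPM in CO cluster 13, whereas DES clusters 5 and 15, at 121 and 111 CPM, were the only DES clusters above the CO range. Cluster 5 is the one the study proposed as cancer cells. Cfi was highest in CO cluster 13 (240.3 CPM) and in DES cluster 1 (163 CPM), and lowest in CO cluster 8 (7.90 CPM) and DES cluster 14 (2.89 CPM). CO cluster 13 was therefore the lowest CO cluster for C3 and Cfb and the highest for Cfi.

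The CO clusters were pooled into gland and luminal ones by their published identity. The 417 cells of gland clusters 3, 8, 13 and 14 had 1414 CPM of C3, 8.27 CPM of Cfb (6.47 to 10.4) and 35.7 CPM of Cfi (31.8 to 39.9). This pooled Cfi level joins the highest CO cluster, 13 (240.3 CPM), with the lowest, 8 (7.90 CPM), so it describes neither. The 2095 cells of the luminal clusters had 1801 CPM of C3, 50.8 CPM of Cfb (49.1 to 52.5) and 81.7 CPM of Cfi (79.5 to 83.8). In DES, the 483 epithelial cells with above 1 UMI each for Krt14 and Trp63, a keratin and a transcription factor of basal cells, had 229 CPM of C3 (219.6 to 238.6), 5.56 CPM of Cfb (4.19 to 7.24) and 12.1 CPM of Cfi (10.1 to 14.5). The other 4772 DES epithelial cells had 923 CPM of C3, 34.9 CPM of Cfb and 76.0 CPM of Cfi, all above the intervals of the basal cells.

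**Figure D2:**
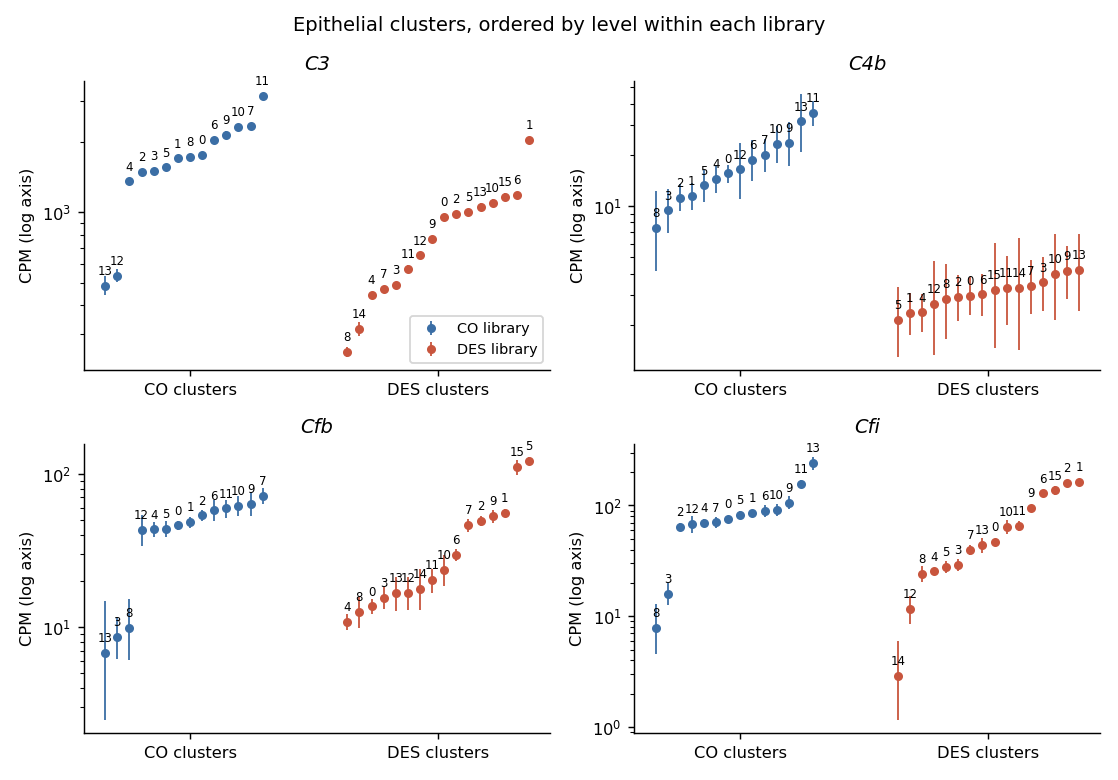
Levels of C3, C4b, Cfb and Cfi (CPM, log axis) in the 14 CO (blue) and 16 DES (red) epithelial clusters with at least 50 cells, numbered as by the authors, with bars for the exact Poisson 95% interval. All 16 DES clusters lie below every CO cluster for C4b, while for C3 4 DES clusters do, and for Cfb DES clusters 5 and 15 lie above the CO range. Clusters of a group share a library and are not replicates.

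The plot of epithelial clusters shows the C4b points, which cannot be told apart from background, as separate bands and the other genes as overlapping clouds. Bars are short for C3 and long for C4b, which had far fewer UMIs.

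In the spatial sections, fewer cells of a type and less RNA per cell cannot be told apart, since a spot covers several cells. C3 had 4657 and 4589 CPM in CO A and CO B against 461 and 685 CPM in DES A and DES B. The CO sections were both far above the DES sections. The log2 difference of DES from CO was -3.21 (SE 0.30, n = 2 against 2), a level 9.28-fold lower (adjusted p = 0.0210, edgeR quasi-likelihood fit over all genes). An exact permutation test over 2 against 2 sections cannot go below 0.333, so these p-values draw on a spread that edgeR shares between genes.

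Cfi was at 70.2 and 50.8 CPM in CO A and CO B and at 11.7 and 11.1 CPM in DES A and DES B, again with no overlap. Its log2 difference was -2.62 (SE 0.24, edgeR adjusted p = 0.0210), or 6.13-fold lower. C3 and Cfi were the 2 of 9 members that fell, none rose, while 2.63% of the 14098 genes tested fell and 2.67% rose (5.3% in either direction). At an unadjusted p under 0.05 there were 4 members, beside 3438 of 14098 genes, the other 2 (C2 and Cfd) higher in DES. DESeq2 called C3, Cfi and Cfd, and over all genes it also called more than edgeR, as given below. Both calls were lost without DES A (C3 adjusted p = 0.0705) or without DES B (0.0674 for C3), each of which leaves 1 DES section, while the C3 difference stayed between -3.58 and -2.94 over all alternatives.

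Markers of other cells moved with these differences. Summed muscle markers were at 14758 and 16169 CPM in CO A and CO B and at 3562 and 4036 CPM in DES A and DES B, and stromal markers at 2915 and 2931 CPM against 1359 and 968 CPM. Plasma cell markers were higher in DES, at 368 and 1208 CPM in CO and 6655 and 11708 CPM in DES, while epithelial markers were at 2957 and 1859 CPM in CO and 3211 and 3400 CPM in DES. The part of these markers in the C3 and Cfi differences was not tested.

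The other members did not pass the test in whole sections, although for 5 of them both DES sections lay above both CO sections, as they did for 43.8% of all genes tested. With C3 and Cfi the groups did not overlap for 7 of 9 members, beside 61.6% of genes. C2 had 37.7 and 46.7 CPM in CO A and CO B and 75.02 and 68.2 CPM in DES A and DES B, a log2 difference of 0.56 (SE 0.17, edgeR adjusted p = 0.142). C1qa had 135 and 223 CPM in CO and 375 and 280 CPM in DES (log2 difference 0.66, SE 0.29, edgeR adjusted p = 0.248). Summed myeloid markers were higher in the same direction, at 259 and 554 CPM in CO and 1784 and 958 CPM in DES, and their part in the C1qa values was not tested.

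C4b stood at 86.8 and 106 CPM in CO and 121 and 114 CPM in DES, with a log2 difference of 0.088 (SE 0.17). Cfb was at 221 CPM in CO A but 84.7 CPM in CO B, against 282 and 289 CPM in DES, and its log2 difference was 0.68 (SE 0.47, edgeR adjusted p = 0.449). With a section left out, the Cfb difference ran from 0.14 to 1.57 (without CO A). The proteases overlapped between groups. C1ra was at 13.03 and 23.2 CPM in CO and 16.5 and 14.1 CPM in DES, and C1s1 at 55.1 and 77.7 CPM in CO and 57.8 and 39.0 CPM in DES.

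**Figure D3:**
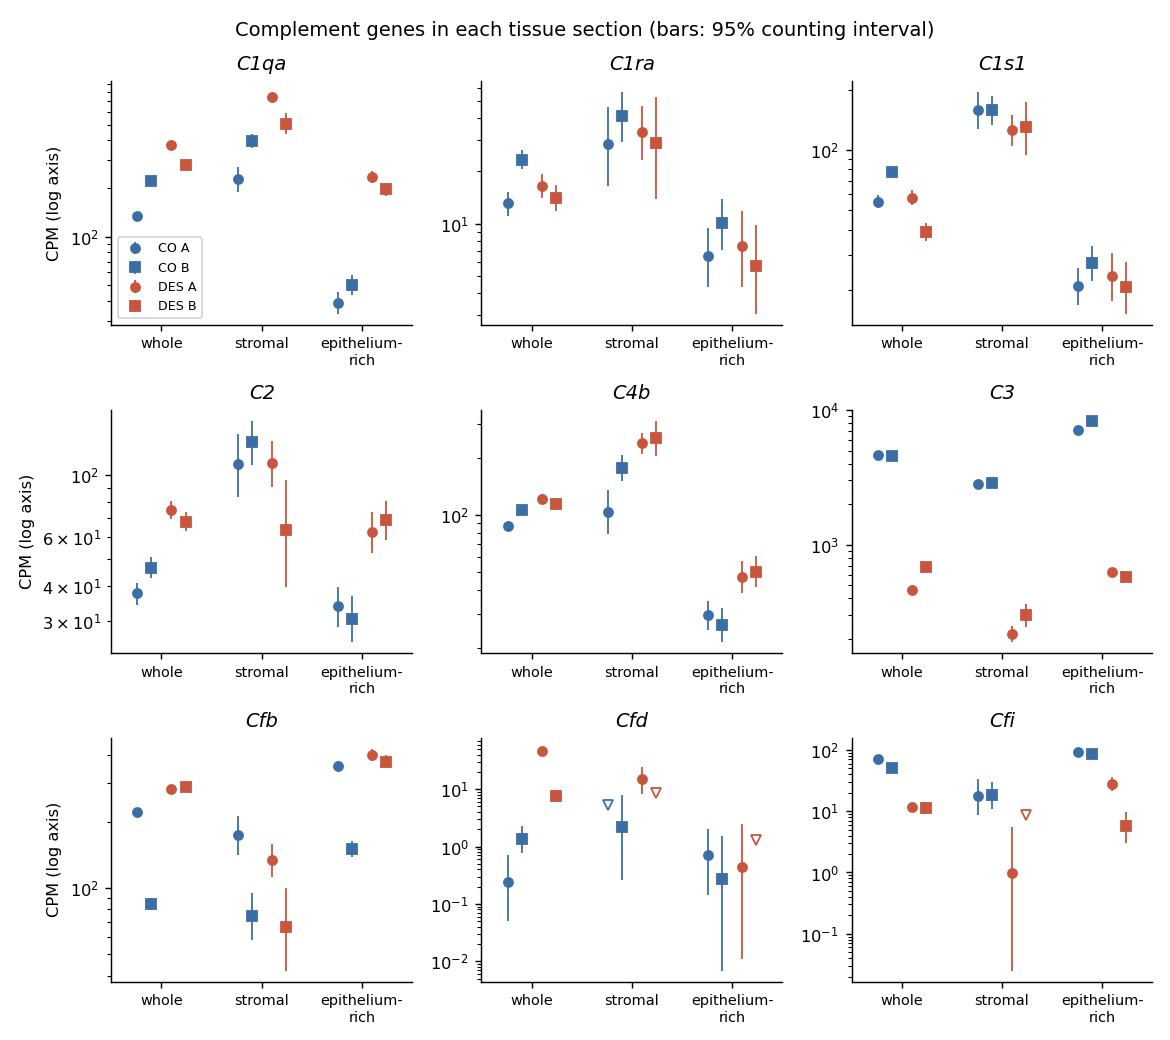
Level of each complement gene (CPM, log axis) in CO (blue) and DES (red) sections, for whole sections, stromal spots and epithelium-rich spots, with circles for section A and squares for section B. Open triangles mark the limit of 3 counts where no UMI was found. The C3 points of CO lie far above those of DES in all 3 regions, from 2822 to 8258 CPM against 217 to 685 CPM.

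Cfd showed the widest range between sections, at 0.2399 and 1.36 CPM in CO A and CO B and 45.5 and 7.59 CPM in DES A and DES B. The log2 difference of 4.85 (SE 1.16, edgeR adjusted p = 0.0874) did not pass the test, although DESeq2 called it (adjusted p = 3.51e-06). It rested on few spots, with 3 UMIs in 1 spot in CO A, 15 UMIs in 13 spots in CO B, 415 UMIs in 27 spots in DES A and 75 UMIs in 9 spots in DES B. The 10 spots with most held 84.6% of the DES A UMIs, and 1 DES B spot held 47. An adipocyte marker was found in 21 of the 27 DES A spots and in 8 of the 9 DES B spots with Cfd, and in 0 of 1 and 2 of 13 in CO A and CO B. Spots without Cfd but with such a marker numbered 140 in DES A, 141 in DES B, 201 in CO A and 436 in CO B. These sections held 1575, 1357, 1433 and 1834 spots in the same order. Summed adipocyte markers over whole sections did not separate the groups (21.3 and 65.5 CPM in CO, 62.2 and 31.9 CPM in DES). Of the 8 markers, Adipoq and Lep were at 0 in both CO sections and were detected in both DES sections. Retn went the other way, detected in both CO sections and in DES A but at 0 in DES B. Cidec was at 0 in CO A only, and the remaining markers were detected in every section.

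The fifth of the spots of each section (20%) with the largest share of epithelial marker UMIs was compared next, since C3, Cfb and Cfi are products of the epithelium. C3 had 7083 and 8258 CPM in these spots of CO A and CO B and 623 and 577 CPM in DES A and DES B. The groups were further apart than in whole sections, with a log2 difference of -3.99 (SE 0.21, edgeR adjusted p = 0.00826), or 15.9-fold lower in DES, and the call held in all 10 alternatives. Summed epithelial markers in these spots were 5111 and 3615 CPM in CO and 4982 and 5294 CPM in DES, so the epithelial marker level, which chose the spots, did not separate the groups. Other markers did, with plasma cell markers at 36.0 and 403 CPM in CO and 2971 and 1588 CPM in DES, muscle markers at 373 and 327 CPM against 705 and 1118 CPM and stromal markers at 1178 and 892 CPM against 614 and 466 CPM, and their part in the C3 difference was not tested. In the dissociated epithelial cells of other mice, the DES to CO ratio of C3 was 0.511, and the ratio of Cfi 0.949.

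C1qa rose in these spots, from 38.8 and 50.2 CPM in CO to 236 and 198 CPM in DES (log2 difference 1.97, SE 0.22, edgeR adjusted p = 0.0147). Myeloid markers were at 143 and 244 CPM in CO and 1437 and 669 CPM in DES in the same spots, and their part was not tested. The call was lost without DES A (adjusted p = 0.0662) and without DES B (0.0578). Of 8 members tested, C3 fell and C1qa rose, where 2.80% of 11728 genes fell and 4.50% rose (7.3% in either direction).

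Cfi was 93.8 and 85.0 CPM in the CO and 27.9 and 5.73 CPM in the DES epithelium-rich spots, with no overlap but with DES A well above DES B (log2 difference -2.73, SE 0.62, edgeR adjusted p = 0.0593, DESeq2 adjusted p = 1.88e-04). With a section left out, the Cfi difference ran from -4.24 to -2.01. Cfb, at 358 and 151 CPM in CO and 401 and 374 CPM in DES, gave 0.28 (SE 0.43, edgeR adjusted p = 0.722). With a section left out, the Cfb difference ran from -0.22 (without CO B), where the sign turned, to 1.07. C2, at 33.9 and 30.7 CPM in CO and 62.7 and 69.2 CPM in DES, gave 0.72 (SE 0.21, edgeR adjusted p = 0.0984). Both DES sections were above both CO sections for C2.

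The stromal spots are the clusters the study named as stroma (101 and 188 spots in CO A and CO B, 211 and 132 in DES A and DES B). C3 had 2822 and 2854 CPM there in CO and 217 and 300 CPM in DES, a log2 difference of -3.49 (SE 0.37, edgeR adjusted p = 0.0142) and the only call among 8 members tested (0.673% of 8914 genes fell, and 1.47% were called in either direction). Every CO A stromal spot and 98.9% of those in CO B had a C3 UMI, against 52.1% in DES A and 44.7% in DES B. The regions are not alike in content, because muscle markers summed to 963 and 762 CPM in CO and 3170 and 9544 CPM in DES, and 66 of the 132 DES B stromal spots were also among its muscle-rich spots. Plasma cell markers summed to 43.0 and 5334 CPM in CO and 16214 and 68788 CPM in DES stromal spots. Stromal markers summed to 5857 and 4446 CPM in CO and 3393 and 2581 CPM in DES. Epithelial markers were at 2005 and 1159 CPM in CO and 1800 and 1010 CPM in DES, so these spots also held epithelial RNA. Dissociated CO stromal cells had a C3 level, given above, far below that of the CO stromal spots. The C3 difference therefore describes spots of mixed cells, and the part of these markers in it was not tested. When the stromal spots were taken instead as the 15% with the largest share of stromal markers, the C3 difference shrank to -1.09 (adjusted p = 0.161).

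Cfi counts in stromal spots were 10 and 17 UMIs in CO and 1 and 0 in DES, or 17.9, 18.4 and 0.985 CPM and 0 in DES B, so that no fold is given (edgeR adjusted p = 0.0552). C4b had 104 and 177 CPM in CO and 238 and 254 CPM in DES (log2 difference 0.75, SE 0.35, edgeR adjusted p = 0.406), and C1qa 229 and 397 CPM against 743 and 508 CPM (0.94, SE 0.36, adjusted p = 0.298). For both the DES sections were above the CO sections without passing the test. C1ra (28.6 to 41.2 CPM), C2 (63.5 to 131 CPM) and Cfb (66.4 to 174 CPM) overlapped between groups, and C1s1 had 158 CPM in both CO sections and 125 and 129.9 CPM in DES (-0.36, SE 0.29, edgeR adjusted p = 0.692).

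In muscle-rich spots, the 20% highest in smooth muscle markers, C3 had 423 and 696 CPM in CO and 536 and 534 CPM in DES. The groups overlapped there. These CO values were the lowest among the regions of the CO sections, and the DES values lay between those of the DES whole sections. C4b had 84.0 and 111 CPM in CO and 397 and 374 CPM in DES muscle-rich spots, the DES mean being 3.95 times the CO mean. Cfb (3.35 times), C1ra (2.2 times), C2 (2.07 times) and C1qa (1.94 times) were also above the CO sections in both DES sections, while Cfd, Cfi and C1s1 overlapped. These were 5 of the 7 members that passed the filter on low counts there, beside 39.9% of 10507 genes (52% did not overlap in either direction). Muscle markers summed to 53452 and 55463 CPM in these spots of CO A and CO B and to 27482 and 23311 CPM in DES A and DES B, and plasma cell markers to 142 and 166 CPM against 12917 and 28264 CPM. Myeloid markers were at 241 and 523 CPM in CO and 749 and 835 CPM in DES, and endothelial markers at 64.6 and 70.1 CPM against 170 and 180 CPM. No test was fitted to the muscle-rich spots, and the part of these markers was not tested.

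**Figure D4:**
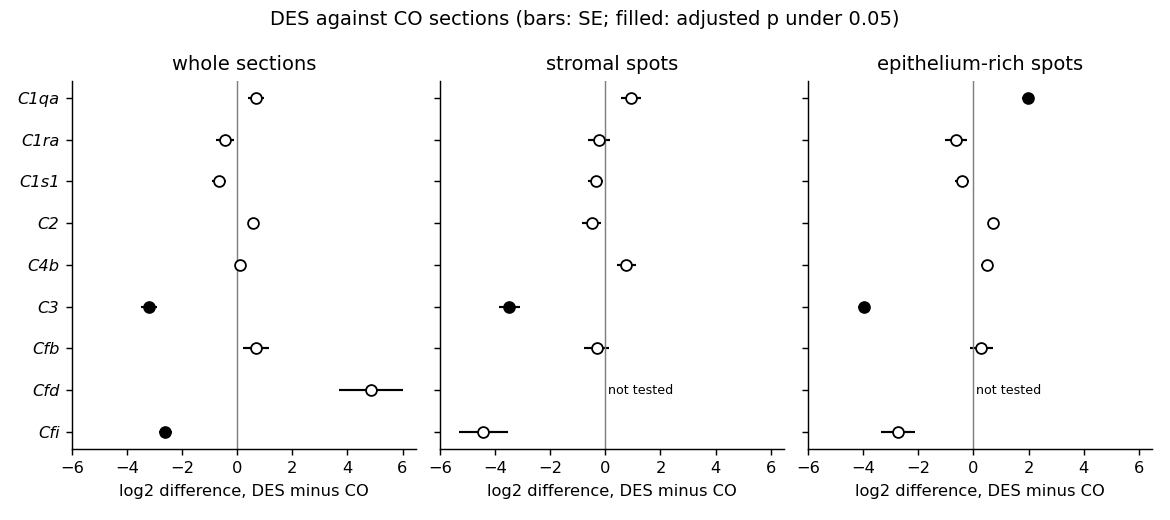
Difference of DES from CO sections (log2, edgeR) with its standard error for each complement gene in whole sections, stromal spots and epithelium-rich spots, with filled points where the adjusted p is under 0.05. C3 is filled in all 3 regions, from -3.21 to -3.99, Cfi in whole sections and C1qa in epithelium-rich spots.

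The plot of section differences shows C3 and Cfi on the negative side in each region and C1qa on the positive side. The remaining members lie within about 1 log2 unit of 0, apart from Cfd with its long error bar.

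Stromal spots were next set against all remaining spots within each section. Because the clustering used the counts that are tested, these p-values are likely too small. In CO, C2 (log2 difference 1.66, SE 0.21), C1s1 (1.34, SE 0.20), C1ra (1.00, SE 0.31) and C1qa (0.83, SE 0.18) were higher in stromal spots, and C3 (-0.79, SE 0.16) and Cfi (-1.80, SE 0.31) were lower. These were 6 of 9 members, where 12% of 13542 genes were called (6.47% higher and 5.5% lower). The C1ra call was lost without CO A (edgeR adjusted p = 0.193), without CO B (0.284) and by DESeq2 (0.187), and the C1qa call without CO B (0.222).

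The DES sections gave 8 calls of 9 against a background of 12.8% (7.16% higher and 5.66% lower). C1s1 (1.64), C4b (1.27), C1ra (1.26) and C1qa (1.13) were higher in stromal spots, while C3 (-1.11), Cfb (-1.46), Cfd (-1.80) and Cfi were lower. Only 15 Cfd UMIs in 1 spot and 1 Cfi UMI were counted in the DES stromal spots, so that no fold is given for Cfi. Without DES A neither was called, with Cfd at -8.34 (edgeR adjusted p = 0.33) and Cfi at an adjusted p of 0.0666. The C1ra call was also lost without DES A (adjusted p = 0.232) and by DESeq2 (0.0589). With the stromal spots taken by marker share, the signs of C3 (0.69) and Cfd (5.88) turned. C3 was then past the threshold in the opposite direction. C2, at 110.3 and 63.5 CPM in DES stromal spots and 70.6 and 68.4 CPM in the other spots, was not past the threshold (0.45, SE 0.22, edgeR adjusted p = 0.204).

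The test of the difference between these contrasts called C2 and Cfb, both lower in DES (3.37% of genes were called and 0.783% were lower). For C2 the enrichment was lower in DES by a log2 difference of -1.21 (SE 0.30, edgeR adjusted p = 0.0143), with stromal against other spots at 109 against 34.4 CPM in CO A and 131 against 39.0 CPM in CO B. Cfb was lower in stromal than in other spots in all 4 sections, and more so in DES, by -1.12 (SE 0.31, edgeR adjusted p = 0.0324), with 174 against 223 CPM in CO A, 74.8 against 85.7 CPM in CO B, 134 against 301 CPM in DES A and 66.4 against 297 CPM in DES B. Neither was called by DESeq2, without CO B or without DES B, Cfb was not called without CO A (adjusted p = 0.0636), and with stromal spots taken by marker share the differences were 0.31 for C2 and -0.030 for Cfb.

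The authors divided each section into 10 clusters of spots, 37 of the 40 with at least 20 spots. C3 ranged over the larger clusters from 399.6 to 7761 CPM in CO A, from 654 to 8658 CPM in CO B, from 217 to 816 CPM in DES A and from 281 to 2870.1 CPM in DES B. Across the clusters of a section (10, 9, 8 and 10), its correlation with the summed epithelial markers was 0.98 in CO A and 0.95 in CO B but -0.41 in DES A and -0.34 in DES B. These are descriptions over clusters that share a library and differ in depth, with no p. The other epithelial members kept the sign of the relation in DES, with Cfb at 0.99, 0.68, 0.93 and 0.95 and Cfi at 0.92, 0.77, 0.19 and 0.60 in the same order of sections.

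C1s1, C1ra and C4b were positively correlated with stromal markers in all 4 sections. For C1s1 the correlations were 0.85, 0.88, 0.97 and 0.99, for C1ra 0.93, 0.94, 0.96 and 0.98 and for C4b 0.57, 0.98, 0.95 and 0.98. Other marker lists ran with them, and in CO A some were closer, with C1s1 at 0.92 with pericyte and 0.89 with endothelial markers and C4b at 0.79 with plasma cell and 0.70 with endothelial markers. C2 was less closely related to the stromal markers, with correlations of 0.17, 0.25, -0.16 and 0.52. With mesothelial markers, C2 had -0.27, -0.14, -0.52 and 0.70, although its highest level in the cells was in the annotated mesothelial ones. With myeloid markers it had 0.44, 0.58, 0.40 and 0.68. C1qa was correlated with myeloid markers at 0.74, 0.87, 0.21 and 0.69 and with stromal markers at 0.85, 0.95, 0.55 and 0.95.

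Among clusters with at least 20 spots, C3 was highest in DES in DES B cluster 9 (47 spots), at 2870.1 CPM. That cluster also had the highest C4b (2313 CPM), C2 (309.7 CPM), C1s1 (258 CPM), C1ra (92.9 CPM), C1qa (1084 CPM) and Cfd (743 CPM) of its section. It also had the highest stromal (7733 CPM), mesothelial (361 CPM), adipocyte (1094 CPM), myeloid (2519 CPM) and lymphocyte (196 CPM) markers of DES B, whose part was not tested. In DES A, cluster 7 (80 spots) was highest for C3 (816 CPM), C4b (806 CPM), Cfd (310.2 CPM), C1ra (85.1 CPM) and C1s1 (180.1 CPM) among these larger clusters. It was also the highest of them in stromal (4033 CPM), endothelial (560 CPM), pericyte (370 CPM), lymphocyte (150 CPM), adipocyte (305 CPM) and plasma cell (28798 CPM) markers, whose part was not tested. A cluster of only 9 spots in DES A had 3928 CPM of C3, 2731 CPM of C4b and 15090.5 CPM of Cfd, where 315 of the 415 Cfd UMIs of that section were counted, beside adipocyte markers at 14803 CPM.

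**Figure D5:**
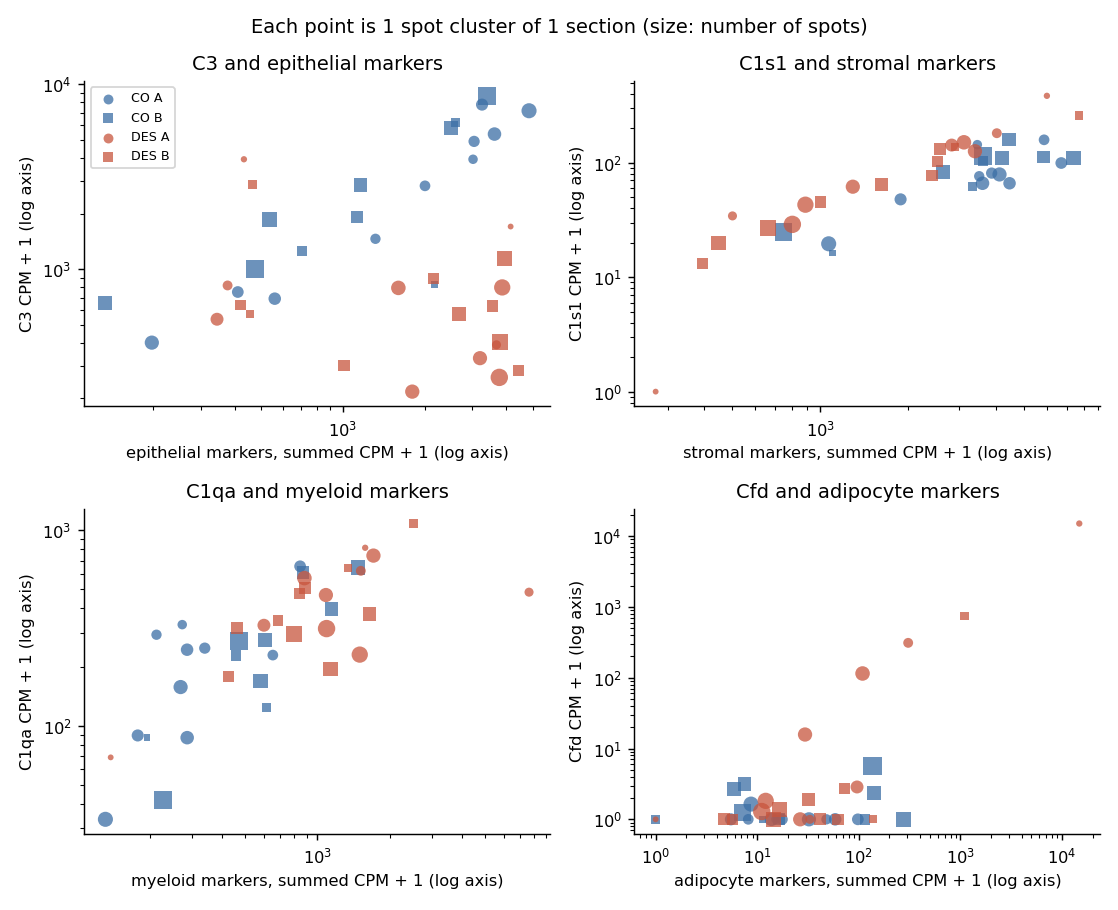
Levels over the 40 spot clusters of the 4 sections (CPM + 1, log axes, point size by number of spots) of C3 against epithelial markers, C1s1 against stromal markers, C1qa against myeloid markers and Cfd against adipocyte markers, in CO (blue) and DES (red). C3 climbs with the epithelial markers in CO (0.98 and 0.95 within the sections) and not in DES (-0.41 and -0.34), while C1s1 climbs with stromal markers in every section.

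In the plot of spot clusters, the red C3 points form a band that stays low at the epithelial end, where the blue points are highest. The Cfd points lie on the floor except for a few DES clusters with adipocyte markers.

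The genes most like each member over the 40 spot clusters were found by Pearson correlation of log2(CPM + 1), with each section's mean taken off, among 7329 genes. C1s1 was nearest to Col4a1 (0.965), Dcn (0.962) and Dpt (0.961), genes of basement membrane and fibroblast matrix, and C1qa to Apoe (0.961), Tnfrsf1a (0.904) and Lrp1 (0.896). C4b was nearest to Sepp1 (0.908), Vim (0.869) and Cd34 (0.866), and C1ra to Samd14 (0.920), Clip3 (0.915) and Trim35 (0.906). Among the members themselves, the closest pairs over all clusters were C1s1 and C1qa (0.784), C4b and C1qa (0.767) and C4b and C1s1 (0.757), while C1ra and C1s1 had 0.654. Over the 37 larger clusters C1ra and C1s1 were closest (0.913), before C4b and C1s1 (0.877).

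For the other members, Cfd was nearest to the adipocyte genes Adipoq (0.954), Cidec (0.897) and Car3 (0.827). Without the clusters under 20 spots these values were 0.926, 0.818 and 0.692. Adipoq had no UMI in either CO section, so its likeness to Cfd rests on the DES sections. Cfb was nearest to Rassf7 (0.927), Prkab1 (0.915) and Atp6v1e1 (0.897), and Cfi to Sox17 (0.845), Txnrd1 (0.844) and Anpep (0.831). Anpep was also the gene most like C3 (0.760), before Calr (0.744) and Stat5b (0.731), the weakest set of the 9. For C2 the nearest were Fcer1g (0.894), RP23-189L19.6 (0.874) and Lima1 (0.873), which dropped to 0.741, 0.667 and 0.659 without the clusters under 20 spots.

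Of 48 further complement genes listed by role, 47 were in the section tables and 30 were tested in whole sections. Their median log2 difference was -0.057, beside -0.0052 over all genes and 0.088 over the 9 members. The receptor chains Itgax and Itgb2, which form an integrin that binds degraded C3 on phagocytes, rose. Itgax had 3.28 and 3.35 CPM in CO and 51.0 and 22.6 CPM in DES (log2 difference 3.25, SE 0.44, edgeR adjusted p = 0.0308), and Itgb2 had 7.84 and 8.88 CPM in CO and 43.5 and 24.3 CPM in DES (1.80, SE 0.32, adjusted p = 0.0488). Both calls were lost without DES A or without DES B. Summed myeloid markers moved with the receptors as they did with C1qa, and their part was not tested.

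By edgeR no further gene of the lists was called in stromal spots (20 tested, median log2 difference 0.13). Of these, 2 had an unadjusted edgeR p under 0.05 and DESeq2 also called 0. In whole sections 14 of the 30 had such a p, beside 3438 of 14098 genes, and DESeq2 called 9. For epithelium-rich spots these counts were 7 of 24, beside 3090 of 11728 genes, and 5 by DESeq2. The DESeq2 counts of listed genes are given without a share over all genes and are not read as a result. In epithelium-rich spots C1qc (log2 difference 1.67, SE 0.25, edgeR adjusted p = 0.0247), a partner chain of C1qa, Itgax (3.07) and Itgb2 (1.99) rose. They were 3 of 24 tested, where 4.5% of 11728 genes rose. Myeloid markers were higher in the same DES spots, as given for C1qa, and their part was not tested. In the cells, the highest levels of the C1q chains C1qb and C1qc were in DES myeloid cells, at 5321 and 3484 CPM, as was that of the anaphylatoxin receptor C3ar1 (387 CPM). The C1 inhibitor gene Serping1 (2222 CPM) and the membrane regulator Cd55 (180.2 CPM) were highest in DES annotated mesothelial cells, the receptor Cd93 (1129.7 CPM) and the regulator Cr1l (111 CPM) in CO endothelial cells, and the stabilizer properdin, Cfp, in CO myeloid cells (175 CPM). C8g, of the terminal pathway, did not exceed 1.79 CPM in any type with at least 50 cells.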

How the data were processed

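The authors counted UMIs per gene with Cell Ranger 3.0.1 (cells) and Space Ranger 1.2.2 (spots) on mm10, examined barcode swapping with DropletUtils and removed doublets with scran, and the deposited tables hold these counts without normalization. Cell types, epithelial clusters and spot clusters are the authors' own. Here UMIs were summed per cell type, cluster, region or section and expressed as CPM, with 95% intervals from the exact Poisson distribution. Shares of cells were taken after thinning to 3000 UMIs (seed 20230). Intervals cover counting error only. Cell libraries were not tested (1 per group). Sections were compared with edgeR 4.0.16 (TMM, filterByExpr, quasi-likelihood test, Benjamini-Hochberg adjustment at 0.05 over all genes tested), with DESeq2 1.42.0 as an alternative. On simulated data, 68% of 2-fold and 100% of 4-fold changes were recovered in whole sections, 37% and 86% between stromal and other DES spots, and 7% and 68% in the difference between these contrasts. The simulation gave every gene the same spread and changed only well-counted genes. It does not give the recovery for members with few counts or a wider spread between sections, such as Cfd and Cfb. Genes named are the 9 members, the listed complement genes called in whole or stromal sections or highest in each list by CPM (the 2 highest), and the 3 genes most like each member. A listed gene that the rule selects is not reported here. Marker and pathway lists, members and tests were chosen with earlier results of these data known. The first CO and DES spatial samples carry no letter in their titles and are called A. Promoter windows are from RefSeq on GRCm38.p6. The alternatives were DESeq2 size factors, a minimum of 1 count as the only filter, fits without each section in turn, a block by section letter and other choices of spots, and for cells other depths, minimums and totals.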

Additional observations from a re-analysis of the deposited data

Results flagged for a closer look

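C2 and Cfb differed between CO and DES sections in their level in stromal against other spots, by the edgeR test of the difference itself, at -1.21 (adjusted p = 0.0143) for C2 and -1.12 (adjusted p = 0.0324) for Cfb on the log2 scale. Cfb was lower in stromal than in other spots in all 4 sections. DESeq2 called neither, leaving out a section gave 0 to 2 of these calls, and with stromal spots by marker share the values were 0.31 for C2 and -0.030 for Cfb.

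Between the single libraries, 5 members had DES to CO ratios on opposite sides of 1 in different cell types, with intervals that did not include 1, and 1 more did so between immune types. By the same criterion 30.8% of the 9151 genes that reached 10 CPM in at least 2 of the 4 types had such ratios, beside 6 of 8 members, and the intervals are narrow because they cover counting error only. These differences were not tested. C3 was at 1.36 in annotated mesothelial cells against 0.511 in epithelial cells, 0.184 in myeloid cells and 0.719 in lymphocytes. C2 was at 1.26 in annotated mesothelial cells against 0.640 in epithelial and 0.101 in myeloid cells, and Cfb at 1.59 against 0.724 and 0.412. C1ra was at 1.15 in annotated mesothelial cells against 0.181 in myeloid cells, and C1s1 at 1.56 against 0.0920. C1qa was at 2.03 in myeloid cells against 0.703 in lymphocytes, of which only 2.6% in CO and 3.77% in DES had a C1qa UMI, so that the interval of the lymphocyte ratio, which counts UMIs, leaves out the spread between cells. The share of epithelial cells with a C2 UMI after thinning, 3.55% in CO and 2.35% in DES, was no higher than that of lymphocytes (4.19% and 3.76%). The mesothelial and stromal marker levels of the CO myeloid cells, given with these ratios above, go with the myeloid values, and their part was not tested.

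Cells without a cell type are in no comparison. In the 6611 such DES cells C1qa stood at 125 CPM, against 10.6 CPM in the 20134 such CO cells, Cfb at 29.6 against 24.8 CPM and Cfi at 35.3 against 28.9 CPM. Only members whose DES interval lay above the CO interval were flagged here, and members lower in these DES cells were not sought.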

How the results depend on the processing

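In whole sections 2 members were called, 3 by DESeq2, and 0 to 4 when a section was left out, with 0 without DES A or without DES B and 4 without CO A or without CO B. In stromal spots 1 was called, 2 with genes of at least 1 count and 2 with the section letter as a replicate block, and 1 whichever section was left out. In epithelium-rich spots 2 were called, and 1 (without DES B) to 5 (without CO A) with a section left out. Stromal against other spots gave 4 to 7 calls in CO and 5 to 8 in DES with a section left out, where 5 was without DES A. The difference between these contrasts gave 0 calls by DESeq2, 5 with stromal spots by marker share and 0 to 2 with a section left out. In cells, a minimum of 50 CPM left 0 calls in epithelial and 4 in myeloid cells, and the mean of UMIs per 10000 over cells gave 2 in lymphocytes.

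Of 518 log2 differences under an alternative, 439 kept their direction and side of the threshold, 38 lost and 24 gained a call, and 17 changed sign, 10 of them with stromal spots chosen by marker share. By marker share, DES against CO in stromal spots was 0.84 for C2, 0.55 for Cfb, 0.54 for C1ra and 0.31 for C1s1, stromal against other DES spots was 0.69 for C3 and 5.88 for Cfd, and the difference between contrasts was 2.29 for C3, 0.31 for C2, 4.83 for Cfd and -0.51 for C1qa. Over the fits that left out a section, C4b in whole sections ran from -0.026 (without CO A) to 0.208. In stromal spots, Cfb ran from -0.84 to 0.37 (without CO A) and C1ra from -0.48 to 0.092 (without CO B). Cfb in epithelium-rich spots ran from -0.22 (without CO B) to 1.07. In stromal against other spots, C2 in DES ran from -0.012 (without DES A) to 0.69 and Cfd in CO from -3.70 (without CO B) to 0.69, and Cfd in the difference between contrasts from -8.85 to 1.91 (without CO B). The cause was not tested.

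Over all genes, whole sections gave 747 calls, 1791 by DESeq2 and 3 (without DES B) to 2819 (without CO A) with a section left out. Stromal spots gave 131, 714 with genes of at least 1 count, 453 with the replicate block and 40 to 357 with a section left out. Epithelium-rich spots gave 856, and 155 to 3018 with a section left out. Stromal against other spots gave 1621 in CO (680 by DESeq2, 3815 by marker share, 670 to 2082 with a section left out) and 1736 in DES (879, 3775, 905 to 1868), and their difference 456 (207 by DESeq2). Section letters did not pair the sections, with correlations of their deviations of -0.0254 in whole sections, 0.0898 in stromal and 0.0425 in epithelium-rich spots. With the block, Cfi was called in stromal (adjusted p = 0.0207) and in epithelium-rich spots (0.0358) and Itgb2 no longer in whole sections (0.0628) or epithelium-rich spots (0.0518). Leaving out a section leaves 1 in its group, which is then assumed to vary like the other group.

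Of 168 ratios between libraries under an alternative, 153 moved by less than counting error and 15 by more. Of 72 shares of cells, 61 moved beyond it with 5000 or no thinning. With 2 sections and 1 library per group, no change under 2-fold was simulated, and the C4b difference in whole sections (0.088, SE 0.17) was smaller than its error. Leaving out the shared barcodes was added after the data were seen.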
